A study of Mus musculus with 24 samples.

Results

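The genes of the COPII vesicle coat were followed in cerebellum (CB) and hippocampus (HC) of mice homozygous for the 16Gso translocation, with Sec24d at the centre. The set held 10 genes of the 25793 in the count tables, namely Sar1a, Sar1b, Sec23a, Sec23b, Sec24a, Sec24b, Sec24c, Sec24d, Sec13 and Sec31a, and all 10 passed the filter on low counts in every comparison. The set was chosen from the counts themselves: Sec24d was lower in P35 mutant HC, so the genotype difference of every member in P35 HC is given as a description, with no test.

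The study compared 16GsoT/T males, which carry the reciprocal translocation T(5G2;8A1) on both homologs (T/T), with wild-type (WT) males at postnatal day 14 (P14) and day 35 (P35). The strain label of the samples gave C57BL/6 for both genotypes, whereas the methods of the study describe an F1 hybrid background of C57BL/6 and C3H/He, called B6C3. The titles of the WT samples other than those of P14 CB also read B6C3. The T/T animals were bred from homozygous parents, so T/T and WT animals were not littermates. Each of the 8 groups of genotype, age and region had 3 libraries from separate animals, and polyadenylated RNA was sequenced and counted per gene. The T/T animals carry the rearrangement in every cell from conception, so changes in a region can arise in any of its cell types.

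Proteins made in the endoplasmic reticulum leave it for the Golgi in vesicles coated by COPII. The small GTPase Sar1 starts the coat, the Sec23/Sec24 complex forms the inner layer and picks the cargo, and Sec13/Sec31 forms the outer cage. Vertebrates have several Sec24 paralogs with overlapping but distinct cargo preferences, and Sec24c and Sec24d form a closely related pair. Loss of SEC24D function in humans causes a skeletal disorder with poor collagen secretion, and neurons rely on the same coat for dendrite growth and delivery of membrane proteins.

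The libraries held between 2563968 and 40564789 reads on genes, with the P35 HC libraries the shallowest (2563968 to 4127478) and the P14 CB libraries the deepest (22893603 to 40564789). No pair of libraries within a group had counts within sampling noise of each other. Tissue labels held: the summed level of cerebellar neuron markers was 9050 to 13889 counts per 1e+06 counts on genes (CPM) in CB and 305 to 729 CPM in HC, and hippocampal neuron markers summed to 870 to 1225 CPM in HC and 99.4 to 130 CPM in CB. The WT HC library N4 at P14 stood apart with 790 CPM of striatal neuron markers against 165 to 236 CPM in all other HC libraries. The WT HC library N10 at P35 held 259 CPM of thalamic neuron markers against 62.9 to 134 CPM in the others. Depth, lane label and index type differed between P14 CB, P14 HC and P35 CB, so comparisons of age or region cannot be told apart from them. Of tallied reads, 64.8 to 68.1% fell on genes in the P14 CB libraries and 37.6 to 42.4% in the others. Every comparison of age or region that was tested includes P14 CB libraries. At P35 HC the WT libraries W481 and W483 were dual-indexed, and N10 and the T/T libraries single-indexed. Index type thus went in part with genotype there. At P14 HC the T/T and WT libraries were on different lanes, and genotype and lane cannot be told apart there.

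Positions of the members were taken from the NCBIM37 (mm9) annotation. Sec24d lies on the plus strand of chromosome 3 at chr3:122970414-123068553. Sec24b lies on the same chromosome, 6.62 Mb away. Sec24a and Sar1b form a divergent pair on chromosome 11 whose annotated starts are 52 bp apart. Sec31a is the only member on chromosome 5 (chr5:100790669-100845253), and no member lies on chromosome 8. Of the 3807 50-base windows of Sec24d transcripts, 278 (7.3%) also occur, on the opposite strand, in transcripts of Mettl14, whose end overlaps that of Sec24d by 991 bp. No window of the other 9 members occurred in a protein-coding transcript of another gene, and only protein-coding transcripts were searched.

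The Sec24d promoter is shown because Sec24d carries the genotype differences below. It runs from 250 bases before to 50 bases after the start site in RefSeq (GRCm38.p6, chr3:123267246-123267545, plus strand), and the capitals mark the single copy of TGACGTGG, the core of the unfolded protein response element (UPRE) bound by XBP1 and ATF6.
Sec24d promoter: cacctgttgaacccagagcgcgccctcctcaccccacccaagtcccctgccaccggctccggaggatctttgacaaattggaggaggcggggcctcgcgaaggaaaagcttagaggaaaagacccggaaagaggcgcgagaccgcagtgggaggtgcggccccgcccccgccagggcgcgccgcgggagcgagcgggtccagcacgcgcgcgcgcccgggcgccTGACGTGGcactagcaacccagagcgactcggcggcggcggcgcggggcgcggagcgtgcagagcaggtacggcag
The element was searched on both strands in all 10 members, which all had a promoter in RefSeq. It was found in 2 of them, Sec24d and Sec23a, and in 0.714% of the 27025 genes with a promoter of this length. The RefSeq window of Sec24a (chr11:51756785-51757084) does not adjoin that of Sar1b (chr11:51763413-51763712). The divergent start of Sec24a described above was therefore not the one searched as its promoter. Neither the cAMP response element TGACGTCA (2.03% of genes) nor the ER stress response element ERSE (0.137% of genes) was found in a member. TGACGTGG and TGACGTCA share their first letters, but no window can match both, and the reverse complement of TGACGTGG begins with the CCACG that ends ERSE. A match is a description of the letters and not a bound site.

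In WT tissue the coat genes spanned more than an order of magnitude in level per length, and Sec24d had the lowest group means in CB but not in HC. Levels between genes are given as CPM per kilobase of exon, with all annotated exons of a gene joined. That length was 10703 bases for Sec24a and 6302 for Sec23b, whose protein-coding transcripts held only 6745 and 3374 50-base windows. For Sec24c (4515 bases, 4559 windows) and Sec24d (3856 bases, 3807 windows) the 2 were close. Levels of Sec24a and Sec23b may thus be understated beside these. The GTPase genes Sar1a and Sar1b were highest, with 48.4 to 55.1 and 42.0 to 56.9 in the 4 WT groups. Sec13, a beta-propeller protein of the outer cage, lay between 21.4 and 36.8, and its partner Sec31a between 16.9 and 19.9. For the inner layer, Sec23a lay between 18.1 and 27.4 and its paralog Sec23b between 6.43 and 7.34. Among the cargo adaptors, Sec24c was highest (19.2 to 23.3), Sec24b followed (9.06 to 10.6), and Sec24a was low throughout (1.97 to 4.36). Sec24d ranged from 2.41 in P35 CB to 9.98 in P35 HC.

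**Figure D1:**
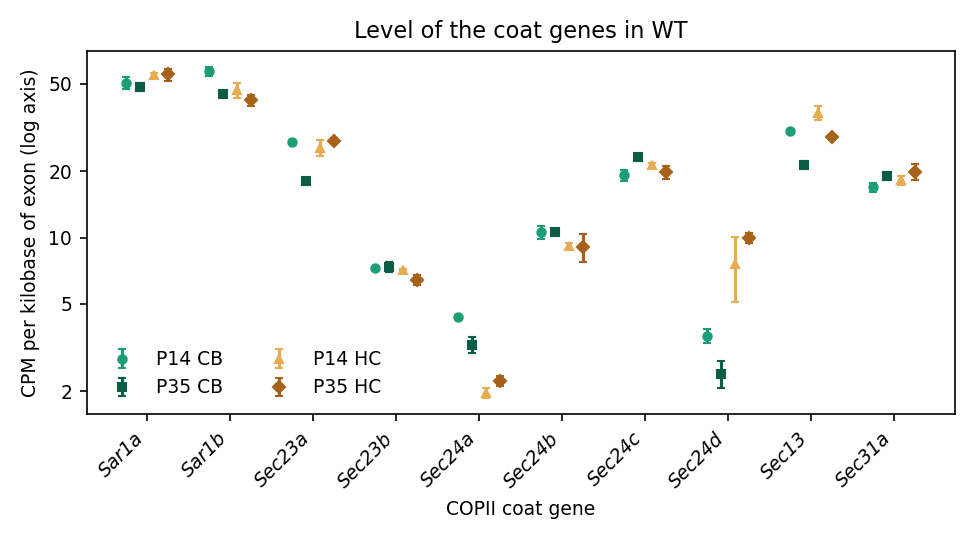
Level of the 10 coat genes in the 4 WT groups, in CPM per kilobase of exon on a log axis; points are means of 3 libraries and bars are 1 SD. At P14, Sec24d and Sec24a differ most between regions, in opposite directions. At P35, Sec24d is at 9.98 in HC and 2.41 in CB.

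In WT at P14, Sec24d and Sec24a differed most between the regions, in opposite directions. In WT P14 CB Sec24d was at 14.6, 14.0 and 12.8 CPM, and in WT P14 HC at 30.5, 37.8 and 19.1 CPM. All 3 HC libraries lay above the 3 CB libraries, with N6 the lowest of them. The log2 difference, CB minus HC, was -1.08 ± 0.198 (SE; adjusted p = 0.000572, edgeR quasi-likelihood test over 15791 genes). In this comparison 77.2% of all genes tested were called and 5 of the 10 members were. Sec24a was 2.21-fold higher in CB (log2 1.14 ± 0.0757, adjusted p = 2.84e-07). Sar1b (log2 0.28) and Sec24b (0.20) were also higher in CB, and Sec13 was lower (-0.28). The members' share was thus below that of all genes, and the median log2 difference was -0.04 for the members and 0.01 for all genes.

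With age, WT CB had less Sec24d. The P35 libraries were at 8.78, 8.34 and 10.7 CPM, all below the 3 P14 libraries listed above, and the log2 difference, P35 minus P14, was -0.55 ± 0.136 (SE; adjusted p = 0.00254, edgeR). Here 7 of the 10 members were called, against 63% of all genes tested. The lower genes were Sec23a (log2 -0.56), Sec24d, Sec13 (-0.47), Sec24a (-0.39) and Sar1b (-0.31). Sec24c (0.32) and Sec31a (0.20) were higher at P35. The directions were therefore mixed within the inner layer and within the outer cage. In WT HC the Sec24d means were 29.1 ± 9.42 CPM at P14 and 38.5 ± 2.07 CPM at P35 (SD, n = 3), and these were not tested because the P35 HC libraries chose the set.

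The genotype difference of Sec24d was in the same direction at both ages and in both regions. In P35 HC, where it was selected, WT libraries were at 36.3, 38.8 and 40.4 CPM (140, 149 and 147 reads) and T/T libraries at 8.52, 16.0 and 14.4 CPM (36, 41 and 52 reads). Every T/T library was below every WT library, and B10 was the lowest. The log2 difference, T/T minus WT, was -1.60 ± 0.205 (SE), so that T/T held 32.9% of the WT level. With the index type of the libraries as a covariate, which sets the T/T libraries against WT N10 alone, it was -1.49 ± 0.261. N10 is also the library with the high thalamic markers, which limits that estimate. Without B10 the log2 difference was -1.34.

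In P14 HC, in libraries that played no part in the selection, Sec24d was at 30.5, 37.8 and 19.1 CPM in WT and at 12.8, 11.5 and 11.6 CPM in T/T. The groups did not overlap, but WT N6 lay nearer to the T/T libraries than to N5. The log2 difference was -1.28 ± 0.222 (SE; adjusted p = 0.0482, edgeR). Sec24d was the 1 member called of 10, in a comparison where 0.814% of all genes were called. The call was close to the threshold: it was kept only when N6 was left out (adjusted p = 0.0105) and lost when A13, A14, A18, N4 or N5 was (0.0770 to 0.168, log2 difference -1.34 to -1.04). Without N4, the library with striatal markers, the difference was -1.25.

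In P35 CB the level was lower in both genotypes. WT libraries were at 8.78, 8.34 and 10.7 CPM and T/T libraries at 5.12, 4.38 and 6.40 CPM, with no overlap. The log2 difference was -0.81 ± 0.206 (SE; adjusted p = 0.00898, edgeR), and it was called with any one library left out (adjusted p at most 0.0412). In P14 CB, the deepest libraries, WT was at 14.6, 14.0 and 12.8 CPM and T/T at 10.7, 11.4 and 12.3 CPM. The groups did not overlap, but WT 3 at 12.8 and T/T 6 at 12.3 CPM were close. The log2 difference of -0.29 ± 0.0993 (SE) was not called (adjusted p = 0.384, edgeR). The share of all genes whose groups do not overlap was not counted in any comparison. Statements of no overlap are thus a description of the libraries and not a result about a member.

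**Figure D2:**
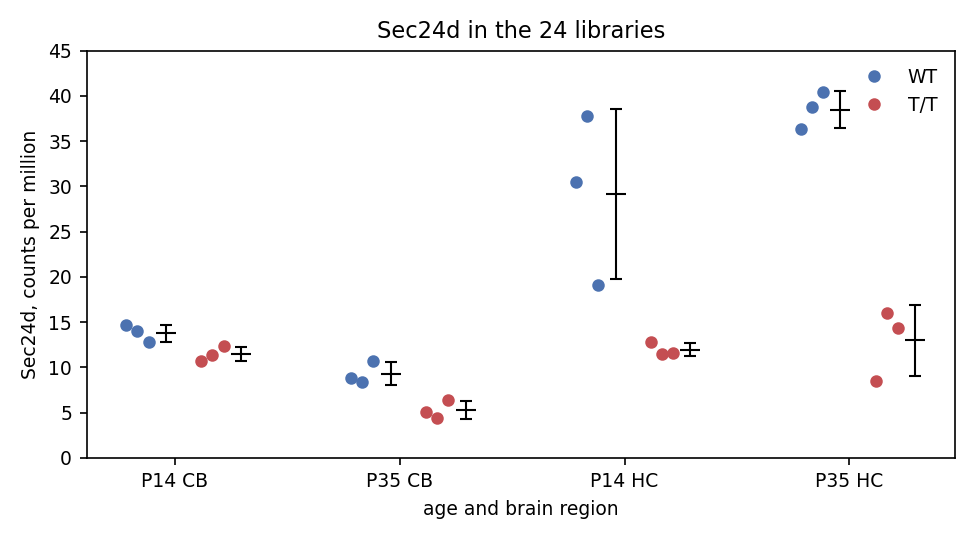
Sec24d in CPM in each of the 24 libraries, WT in blue and T/T in red, by age and region; black marks are group means ± 1 SD of 3 libraries. T/T libraries lie below WT libraries in P14 CB, P35 CB and P14 HC. They also do in P35 HC (8.52 to 16.0 against 36.3 to 40.4 CPM), the comparison that chose Sec24d. The share of all genes that separate so was not counted.

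The sizes of the difference were compared where the design allowed it without the P35 HC libraries. Between regions at P14, the difference in CB minus that in HC was 0.99 ± 0.256 on the log2 scale (SE; adjusted p = 0.234, edgeR). In that interaction 0 of 10 members and 0% of 16398 genes were called by edgeR, while 1509 genes, and 1 member, had an unadjusted p under 0.05. DESeq2 called 91 genes there, Sec24d among them (adjusted p = 0.0352). Between ages in CB, the difference at P35 minus that at P14 was -0.53 ± 0.211 (SE; adjusted p = 0.0924, edgeR). Whether the T/T deficit of Sec24d differed between regions or ages was thus not settled by edgeR at this depth and number of animals.

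The other members did not share the Sec24d pattern in HC or in P14 CB. In P35 HC their log2 differences ran from -0.24 (Sec24b, SE 0.138) to 0.29 (Sar1b, SE 0.120). The set was chosen on this comparison, in which 0.135% of all genes were called, so nothing is read from Sec24d being the 1 member of 10 called there. In P14 HC the other 9 members ran from -0.18 (Sec24b, adjusted p = 0.201, edgeR) to 0.09 (Sec23a), and none was called. In P14 CB none of the 10 was called, where 0.506% of all genes were by edgeR, and 1 of the 10, Sec24d, had an unadjusted p under 0.05. DESeq2 also called none of the 10 there. Their log2 differences other than that of Sec24d lay between -0.07 and 0.08.

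In P35 CB the coat genes moved in both directions, as did a large part of the transcriptome. Of the 10 members, 6 were called, 4 higher and 2 lower in T/T, against 35.3% of all genes tested. Sec31a of the outer cage rose from 81.1, 88.1 and 84.6 CPM in WT to 108, 117 and 124 CPM in T/T, with no overlap (log2 0.44 ± 0.0711, SE; adjusted p = 0.000548, edgeR). Sec24b (0.28), Sec23b (0.27) and Sec24c (0.20) were also higher, with adjusted p of 0.0203, 0.0186 and 0.0380 by edgeR. Sar1b fell by 0.23 on the log2 scale (SE 0.0771, adjusted p = 0.0361, edgeR), and Sec24d fell as given above. Sec13 (0.22, adjusted p = 0.0614), Sec23a (0.04), Sar1a (0.06) and Sec24a (-0.17) were not called. The median log2 difference was 0.13 for the members and -0.00399 for all genes. Sec24d was called in every alternative run and Sec31a in every one but the fold limit of 1.5, under which Sec24d alone was called. The count fell to 3 with DESeq2 and to 2 in a fit of all 12 P35 libraries; it was 2 without M27 or C20 and 3 without C21, M28 or M29.

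**Figure D3:**
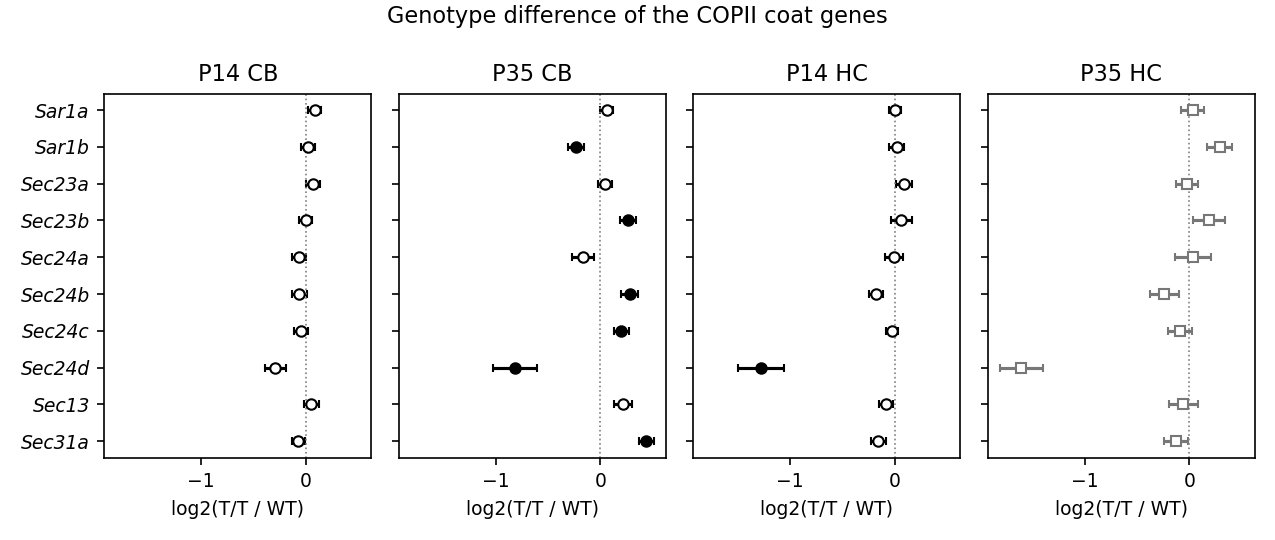
Log2 difference, T/T over WT, of the 10 coat genes in each age and region, with bars of 1 SE. Filled circles were called at an adjusted p of at most 0.05 and open circles were not; grey squares in P35 HC are a description with no test, since that comparison chose the set. Sec24d is the leftmost gene in each panel, from -0.29 in P14 CB to -1.60 in P35 HC.

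In CB the interaction of genotype with age was called for 2 of the 10 members, Sec31a and Sec24b. That share is close to the 18.6% of all genes called, so nothing is read from the count. Age in CB cannot be told apart from lane label, index type and depth. For Sec31a the difference at P35 minus that at P14 was 0.50 ± 0.0957 on the log2 scale (SE; adjusted p = 0.00213, edgeR), with -0.07 at P14 and 0.44 at P35. For Sec24b it was 0.34 ± 0.111 (adjusted p = 0.0449, edgeR), with -0.06 at P14 and 0.28 at P35. The Sec31a call held with any one library left out, and the Sec24b call was lost in 9 of the 12 such fits.

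Seen as a mix of adaptors, Sec24d had a lower mean share of the Sec24 pool in T/T in each setting. The share uses the Sec24d counts given above, so it is not a separate result. Its share of the summed CPM per kilobase of the 4 Sec24 paralogs, a description chosen after the values were seen, was 24.4% ± 2.40 in WT and 10.4% ± 2.41 in T/T in P35 HC (SD, n = 3). In P14 HC it was 18.7% ± 5.23 and 9.14% ± 0.575. In CB the shares were smaller, 9.51% ± 0.734 and 8.21% ± 0.844 at P14, and 6.09% ± 0.738 and 3.09% ± 0.511 at P35. The P14 CB shares overlapped, with T/T library 6 at 9.05% and WT library 3 at 8.69%. All shares rest on the joined exon lengths, so the Sec24a share may be too low and those of Sec24c and Sec24d too high. Sec24c, the closest paralog, held the largest share in every group, from 48.2% in WT P35 HC to 61.4% in T/T P14 HC. The Sec24c level itself was 89.3 ± 5.79 CPM in WT and 84.1 ± 7.58 CPM in T/T in P35 HC (SD, n = 3), and its groups overlapped there.

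**Figure D4:**
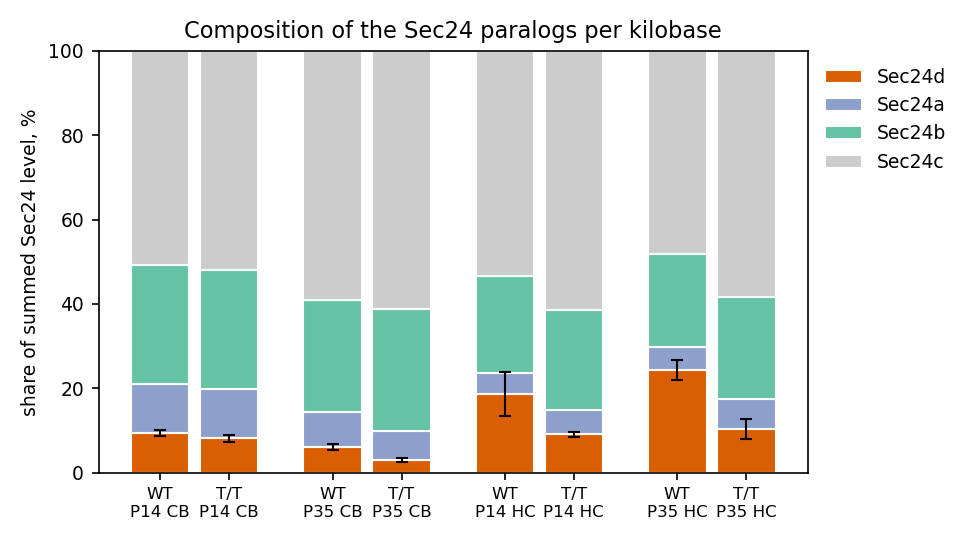
Mean share of each Sec24 paralog in their summed CPM per kilobase, in percent, for the 8 groups; the black bar on the Sec24d segment is ± 1 SD of its share over 3 libraries. The Sec24d segment is smaller in T/T than in WT in each pair, with 10.4% against 24.4% in P35 HC, the comparison that chose Sec24d.

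Genes that act beside the coat were read as lists. In P14 CB, P14 HC and P35 HC, none of the genes of COPII assembly at exit sites, ER cargo receptors, ER to Golgi tethers and SNAREs, the COPI coat or ER stress passed the threshold in edgeR. In P35 CB, 5 of 10 assembly genes tested were called, 4 of them higher, including Pef1 (log2 0.43), a calcium sensor of the coat, and Sec16a (0.34), a scaffold of exit sites. Among 22 cargo receptors 2 were higher and 4 lower, the latter led by Tmed5 (-0.68) and Ergic2 (-0.59). Among 22 tethers and SNAREs 6 were higher and 2 lower. Of 16 genes of the COPI coat and its regulators, which serve the return path from the Golgi, 8 were higher and 1 lower, with Gbf1 (0.70), the Arf exchange factor, and Copg (0.48) among the former and Copz2 (-1.70) the latter. Of 24 ER stress genes 4 were higher, among them the chaperone gene Hspa5 (0.75) and Xbp1 (0.70), and 3 were lower, led by Ern1 (-0.57). The shares of these lists called in P35 CB lie on both sides of the 35.3% of all genes.

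Cell type markers moved with genotype in the same libraries. In P35 HC, where 0.135% of all genes were called, choroid plexus markers were higher for 12 of 12 tested with 8 called. They summed to 388 to 1800 CPM in T/T and 91.0 to 104 CPM in WT. In P14 HC they were higher for 13 of 13 with none called, and their sums overlapped (101 to 1858 CPM in T/T and 119 to 949 CPM in WT). Oligodendrocyte markers in P14 HC were higher for 12 of 13 with none called (5452 to 8957 against 3282 to 5646 CPM), and in P14 CB lower for 13 of 13 with none called (6930 to 11850 against 10722 to 12353 CPM). Astrocyte markers in P14 HC were lower for 8 of 10, and Aldoc (log2 -0.40) and Gjb6 (-0.85) were called, the only markers called in that comparison (5448 to 5867 against 5830 to 6937 CPM). Of all genes 0.814% were called there. Gjb6 was also lower in P14 CB (-0.63, adjusted p = 0.0265, edgeR), the only marker called there, against 0.506% of all genes. In P35 CB 35.3% of all genes were called, 18% as lower. Endothelial and mural markers were there lower for 13 of 13, all called (208 to 217 CPM in T/T and 424 to 435 CPM in WT). Fibroblast and meningeal markers were lower for 14 of 14 with 9 called (241 to 292 against 359 to 392 CPM). Choroid plexus markers were there lower for 12 of 13 with 3 called, opposite to P35 HC, with sums that overlapped (142 to 394 CPM in T/T and 25.9 to 2145 CPM in WT). None of the markers of these lists was at 0 throughout a group. Striatal neuron markers were lower for 9 of 10 in P14 HC, with none called. In P35 HC thalamic neuron markers were lower for 7 of 8 and microglia markers higher for 9 of 10, with none called. Of 12 cerebellar neuron markers in P35 CB, 5 were called higher and 1 lower. The part of the marker lists in the Sec24d difference was not tested, and in bulk tissue fewer cells of a type and less RNA per cell cannot be told apart. The share of reads that fell on genes was 37.7% in WT and 42.3% in T/T in P35 CB, which was also not tested against the members.

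The genes around Sec24d on chromosome 3 were read from the same fits, a choice made after the values were seen. Within 500 kb lie 10 protein-coding genes, of which 9 were in the tables and 6 or 7 passed the filter. Mettl14, a subunit of the RNA N6-adenosine methyltransferase that overlaps the end of Sec24d, was lower in T/T in all 4 settings, by log2 differences of -0.51 and -0.70 in CB at P14 and P35 and of -0.49 and -0.57 in HC. Ndst3, a heparan sulfate sulfotransferase 160.5 kb away, was likewise lower, at -0.54 and -0.92 in CB and -0.40 and -0.54 in HC at P14 and P35. Of these, only the P35 CB differences were called (adjusted p = 0.000507 and 1.00e-06, edgeR).

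Usp53 (-0.66) and Synpo2 (-0.80) were called lower in P35 CB as well, so that 4 of the 6 neighbours tested there were called lower, against 18% of all genes, and the other 2 had differences close to 0 (Pde5a -0.04, 1810037I17Rik -0.06). Synpo2, 31.3 kb from Sec24d and also one of the thalamic neuron markers, was at -1.61 in P14 CB (SE 0.310, adjusted p = 0.0713, edgeR). Pde5a, 1810037I17Rik and Prss12 were not called in any setting, and Prss12, 81.3 kb away, had positive differences (0.63 in P14 CB). No neighbour was called in P14 CB or P14 HC, and in P35 HC the values are a description. The strand setting of the authors' counting is not given in the sources used here, so reads in the overlap of Sec24d and Mettl14 cannot be assigned, and the cause of the shared direction was not tested.

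**Figure D5:**
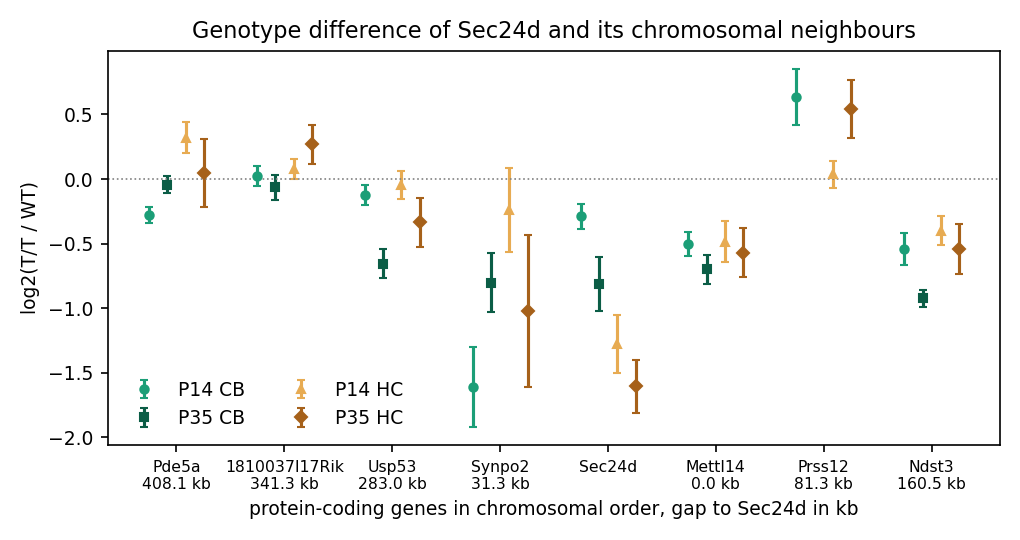
Log2 difference, T/T over WT, of Sec24d and the protein-coding genes within 500 kb that passed the filter, in chromosomal order, with the gap to Sec24d in kb and bars of 1 SE. Mettl14 and Ndst3 lie below 0 in all 4 settings, and Prss12 lies above 0 wherever it was tested.

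Among the genes whose profile over the 24 libraries was most like that of Sec24d were Phtf1 (Pearson r = 0.88 of log2 CPM), Golm1 (0.86), Kcnj2 (0.86) and Lrp1b (0.84), of 15954 genes compared. The least alike were Vamp8 (-0.85), Traf2 (-0.84) and Atoh7 (-0.83). These are descriptions over libraries that share group, region, age and lane label. Phtf1 was at 47.0 ± 3.29 CPM in WT and 31.4 ± 2.25 CPM in T/T in P35 HC (SD, n = 3), and its means in P35 CB were 33.4 and 18.8 CPM. Of the other coat genes, Sec23a was the most alike (0.58), followed by Sec13 (0.44) and Sar1a (0.34). Sec23b was the least alike (-0.57), and the 3 other Sec24 paralogs all had negative values (-0.49 to -0.40). With Spearman correlation Kcnj2 and Lrp1b were among the 5 highest and Phtf1 and Golm1 were not, and over the 12 WT libraries alone none of these 4 was.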

How the data were processed

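CB and HC were each taken from 3 males per genotype and age, under separate identifiers, and stranded mRNA libraries were sequenced. The labels name a TruSeq kit and the methods of the study a KAPA kit. The deposited values are raw counts of reads per gene, which the authors made, per the submitters' processing notes, with CASAVA 1.8.2, TopHat2 2.0.8 and HTSeq 0.6.1 on NCBIM37. The annotation and strand setting are not given in the sources used here. Rows of unassigned reads were left out of library sizes, which leaves 37.6 to 68.1% of tallied reads on genes.

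Members and gene lists were chosen with earlier results of these data known. Genotype was tested in each region and age over 6 libraries, and its interactions over 12, with edgeR 4.0.16 (R 4.3.3, limma 3.58.1): filterByExpr (minimum count 10), TMM scaling, quasi-likelihood test, Benjamini-Hochberg adjustment over all genes tested, called at an adjusted p of at most 0.05. Tests were checked on simulated data. CPM values use TMM over the 24 libraries. Alternatives were DESeq2 1.42.0, other scaling and filters, a fold limit of 1.5, one fit per age, index type as a covariate in P35 HC, and leaving out each library. P-values measure the spread between 3 animals per group. All 10 members are named, and of the other lists up to 4 called genes of largest change per comparison; likeness to Sec24d names the 5 highest and 3 lowest Pearson correlations, of which 1 is not reported here. Promoters were from RefSeq (GRCm38.p6) and gene positions from GENCODE on NCBIM37.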

Additional observations from a re-analysis of the deposited data

Results flagged for a closer look

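The interaction of genotype with age in CB was called for 2 of the 10 coat genes, a share close to the 18.6% of all genes called. Age cannot be told apart there from lane label, index type and depth. For Sec24b the log2 difference at P35 minus that at P14 was 0.34 (adjusted p = 0.0449, edgeR), and for Sec31a it was 0.50 (adjusted p = 0.00213, edgeR). The Sec24b call was kept in 3 of the 12 fits that left out 1 library. All 3 T/T libraries lay above all 3 WT libraries at P35 for both genes, in a comparison where 35.3% of all genes were called. How many of all genes separate so was not counted. Endothelial and mural markers changed by age in the same test for 12 of 13 genes, all towards lower in T/T at P35, and their part in the members' values was not tested. Groups of 3 libraries are too small for a test of single outlying libraries.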

How the results depend on the processing

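Of 970 log2 differences of the members recomputed under the alternatives, 866 kept their direction and side of the threshold or, in P35 HC, moved by less than 1 SD. The Sec24d difference was negative in all 4 genotype comparisons under every alternative run, where P35 HC is the comparison that chose Sec24d. In P35 CB the members called, 6, became 3 with DESeq2, 2 in one fit of the 12 P35 libraries, 1 with a fold limit of 1.5 and 2 to 6 without one library. In P14 HC the count of 1 became 0 to 1 without one library, and in the interaction with age 0 with the fold limit and 1 to 3 without one library. In the interaction with region DESeq2 called 1, and with the fold limit 2 members remained called between WT regions and 0 between WT ages. The cause was not tested, except that the fold limit removes small differences by construction.

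Sign changes occurred only for members that were not called. For Sec23b in P14 CB (-0.000260) the values were 0.00224 with DESeq2, 0.000876 with its size factors in edgeR, 0.00555 without a filter, 0.00328 in one fit of 12 libraries and -0.0242 to 0.0415 without one library. For Sec23b between WT regions they were -0.00226 with DESeq2's size factors and -0.00445 with at least 10 counts in every library. For Sar1a in P14 HC they were -0.00165 with DESeq2, -0.00142 with its size factors and -0.0353 to 0.0203 without one library, and in the interaction with age 0.000307 without a filter and -0.0807 to 0.00945 without one library. For Sar1b by region they were 0.0173 with DESeq2, 0.0184 with its size factors and -0.0451 to 0.0668 without one library. Sec24b between WT ages was -0.00284 without a filter and -0.00921 to 0.0820 without one library. In the comparisons that were tested, the remaining sign changes came from leaving out one library: Sar1a between WT ages (-0.0691 to 0.0242), Sar1b in P14 CB (-0.0195 to 0.0646) and P14 HC (-0.0160 to 0.0775), Sec23a by age (-0.0715 to 0.0226) and by region (-0.0782 to 0.0663), Sec23b by region (-0.140 to 0.0659) and in P14 HC (-0.0486 to 0.152), Sec24a by region (-0.0851 to 0.00479) and in P14 HC (-0.0594 to 0.0256), and Sec24c by region (-0.0686 to 0.0280) and in P14 HC (-0.0591 to 0.00177). In P35 HC, which was not tested, the values of Sec13 (-0.102 to 0.0315), Sec23a (-0.0386 to 0.0114), Sec24a (-0.117 to 0.143) and Sar1a (-0.0401 to 0.0686) also lay on both sides of 0 over the alternatives. No paired analysis was possible because the libraries carry identifiers of their own and share no replicate numbers. Over all genes DESeq2 called 234 in P14 CB (edgeR 81), 397 in P14 HC (124) and 46 in P35 HC (18), but 3641 in P35 CB (4947), and without a filter on low counts edgeR called 134 in P35 HC. Sec24d rested on 36 to 52 reads per T/T library in P35 HC and 30 to 43 in P35 CB, which limits its precision there.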
